A study of Mus musculus with 10 samples.

Results

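The nuclear genes of respiratory complex I were examined in the mouse hippocampus as 36 genes with an Ndufa, Ndufab, Ndufb, Ndufc, Ndufs or Ndufv symbol, picked by name out of the 27343 genes of the deposited table. Wild-type male C57BL/6J mice, 2 months old, received either Visudyne or vehicle into the cisterna magna. Visudyne is verteporfin, a photosensitizer, and both groups were lit with red light of 689 nm over the closed skull in order to ablate meningeal lymphatic vessels in the Visudyne mice. The procedure was done again after 2 weeks, the mice swam the Morris water maze, which tests spatial learning, 2 weeks later, and the whole hippocampus was taken 3 days after the maze. There were 5 Visudyne libraries (numbered 1 to 5) and 5 vehicle libraries (6 to 10), so that both groups had had the injections, the light and the maze. The comparison asks which of these transcripts differ between Visudyne and vehicle libraries. No Visudyne group without light is among them, so effects of Visudyne itself and of vessel loss cannot be told apart. The labels do not say that the libraries came from separate mice, so p-values measure the spread between these libraries.

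Complex I, the NADH:ubiquinone oxidoreductase, is the entry point of electrons from NADH into the respiratory chain. Its N module in the matrix oxidizes NADH, its Q module passes the electrons through iron-sulfur clusters to ubiquinone, and its membrane arm pumps protons. Most subunits are nuclear-encoded and imported, whereas the core of the membrane arm is encoded by mitochondrial DNA, and neurons depend heavily on the complex for ATP. The members were ordered here as 10 genes of the N module, 5 of the Q module, 9 of the proximal and 11 of the distal membrane arm, and Ndufa4, whose protein is now known as a subunit of complex IV.

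Visudyne libraries held 34548474 to 36956138 counts in total and vehicle libraries 24752362 to 41073906. The mitochondrial ribosomal RNA mt-Rnr2 took 33.6% to 39.7% of a Visudyne library and 32.2% to 35.7% of a vehicle library. All 6 hippocampal marker genes were detected and 1 was called lower, with summed levels of 657.7 to 1123 CPM (counts relative to TMM-scaled library size) in Visudyne and 699 to 831.9 CPM in vehicle. The libraries also differed in how counts depended on base composition. For each library, log2 levels were taken relative to each gene's mean over all libraries and regressed on the GC content of the gene's exons. The slope was -0.0527 to 0.00133 per percent GC in Visudyne and -0.00154 to 0.0399 in vehicle, and only Visudyne 5 and vehicle 10 crossed between the groups. Because of the centring, the sign of a slope is relative to the other libraries. For comparison with the marker counts in this paragraph, 20.5% of all tested genes were called, 11.5% lower and 8.98% higher. Among markers of other cells, 4 of 5 tested oligodendrocyte genes were called lower (6 listed, summed 1832 to 2116 CPM against 1876 to 2481 CPM) and 2 of 5 tested choroid plexus genes higher (7 listed, 22.8 to 446.7 CPM against 22.5 to 34.6 CPM). Of 6 neuronal markers 1 was called lower (summed 3356 to 3969 CPM against 2986 to 3449 CPM). Only 2 of the 6 had negative fold changes, and 5 had an unadjusted p under 0.05. Of 5 microglial markers 1 was called lower (93.95 to 103.8 CPM against 91.28 to 100.2 CPM), with 3 negative and 3 at an unadjusted p under 0.05. Of 4 endothelial markers 1 was called higher (84.25 to 96.3 CPM against 72.07 to 84.66 CPM), with 2 negative and 2 at an unadjusted p under 0.05. In each of these 3 lists DESeq2 called 1 lower and 1 higher. Astrocyte markers had 0 of 5 called (1 at an unadjusted p under 0.05, and 1 by DESeq2), and no marker in these lists was at 0 in every library. The part of cell composition in the results below was not tested, and in bulk tissue fewer cells of a type cannot be told apart from less RNA per cell.

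Promoters of the members were searched for the core motifs of 3 factors known to act on nuclear genes of mitochondria, in 300 bases from 250 before to 50 after the start site (RefSeq, GRCm38.p6, both strands). Windows were found for 33 of the 36 genes, 35 windows in all, with none for Ndufs1, Ndufb9 or Ndufa2. The YY1 core AAGATGGC stood in 7 of the 35 windows, against 2.75% of all promoters and 3.91% of those of tested genes. The NRF1 core CGCATGCG, which reads the same on both strands, stood in 2 (5.71%, against 1.87% and 3.38%), and the ETS core CCGGAAG in 4 (11.4%, against 8.86% and 15.1%). The following stretches belong to members called between the groups and are shown because they hold such a match, in capitals, written 5′ to 3′ on the gene's strand. A match is a description of the sequence only.
Ndufa11, NRF1, chr17:56717677-56717736, plus strand: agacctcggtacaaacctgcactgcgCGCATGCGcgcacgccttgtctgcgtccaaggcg
Ndufa8, NRF1, chr2:36049339-36049373, minus strand: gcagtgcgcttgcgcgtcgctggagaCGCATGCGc
Ndufs3, ETS, chr2:90904722-90904774, minus strand: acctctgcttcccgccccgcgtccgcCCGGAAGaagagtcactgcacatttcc
Ndufb6, ETS reversed, chr4:40279621-40279671, minus strand: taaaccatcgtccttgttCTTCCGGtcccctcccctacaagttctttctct
Ndufa3, YY1, chr7:3617384-3617413, plus strand: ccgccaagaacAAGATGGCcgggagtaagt
Ndufb8, YY1, chr19:44555393-44555415, minus strand: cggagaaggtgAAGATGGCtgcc
The matches of Ndufa11, Ndufa8, Ndufs3 and Ndufb6 were centred 55, 5, 24 and 228 bases before the start site, and the YY1 matches of Ndufa3 and Ndufb8 were 26 and 42 bases after it. Both directions occurred among genes with a match: 7 of the 12 called lower with a window, and 2 of the 5 called higher, held any of the motifs. So did Ndufa9, Ndufb7, Ndufs4 and Ndufs7, which were not called. In all, 13 of the 35 windows (37.1%) held any of them, against 12.6% of all promoters and 20.7% of those of tested genes. Whether a match goes with a direction was not tested.

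The members differed in level and moved in both directions. Of the 36 genes, 35 had enough counts to be tested, and 18 were called at an adjusted p under 0.05 by edgeR's quasi-likelihood test with Benjamini-Hochberg adjustment over all 15938 tested genes. Of these, 13 were lower and 5 higher in Visudyne, and 17 were not called. Across all tested genes 20.5% were called, 11.5% lower and 8.98% higher. The median log2 fold change (Visudyne over vehicle) was -0.28 over the 35 members, a fold of 0.826, and 0.01 over all tested genes. The 5 Visudyne values lay wholly below the 5 vehicle values for 6 members and wholly above them for 2, where 7.22% and 5.25% of all tested genes did so. These calls rested on single libraries, as did those of all genes: the number of members called was 0 without Visudyne 3 and 0 without vehicle 6 (21 and 22 then had an unadjusted p under 0.05), 2 without vehicle 9, 5 without Visudyne 4, 7 without Visudyne 1 or vehicle 7, 8 without Visudyne 2 and 12 without vehicle 8. Over all tested genes 0.167% were then called without Visudyne 3, 0.0622% without vehicle 6, 1.92% without vehicle 9 and 6.94% to 13.6% without the other libraries just named, so the loss was not one of the members alone. Without Visudyne 5, 23 members were called (all genes 31.5%), and without vehicle 10, 18 (22.6%). Of these 10 fits, Ndufb8 and Ndufb9 were called in 8. Ndufs6, Ndufs8, Ndufc2, Ndufb3, Ndufb4 and Ndufb6 were called in 2, and the other called members in 3 to 7. The members' median was -0.17 without vehicle 9, and -0.18 over the 28 members left by a filter at a mean of 5 CPM.

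**Figure D1:**
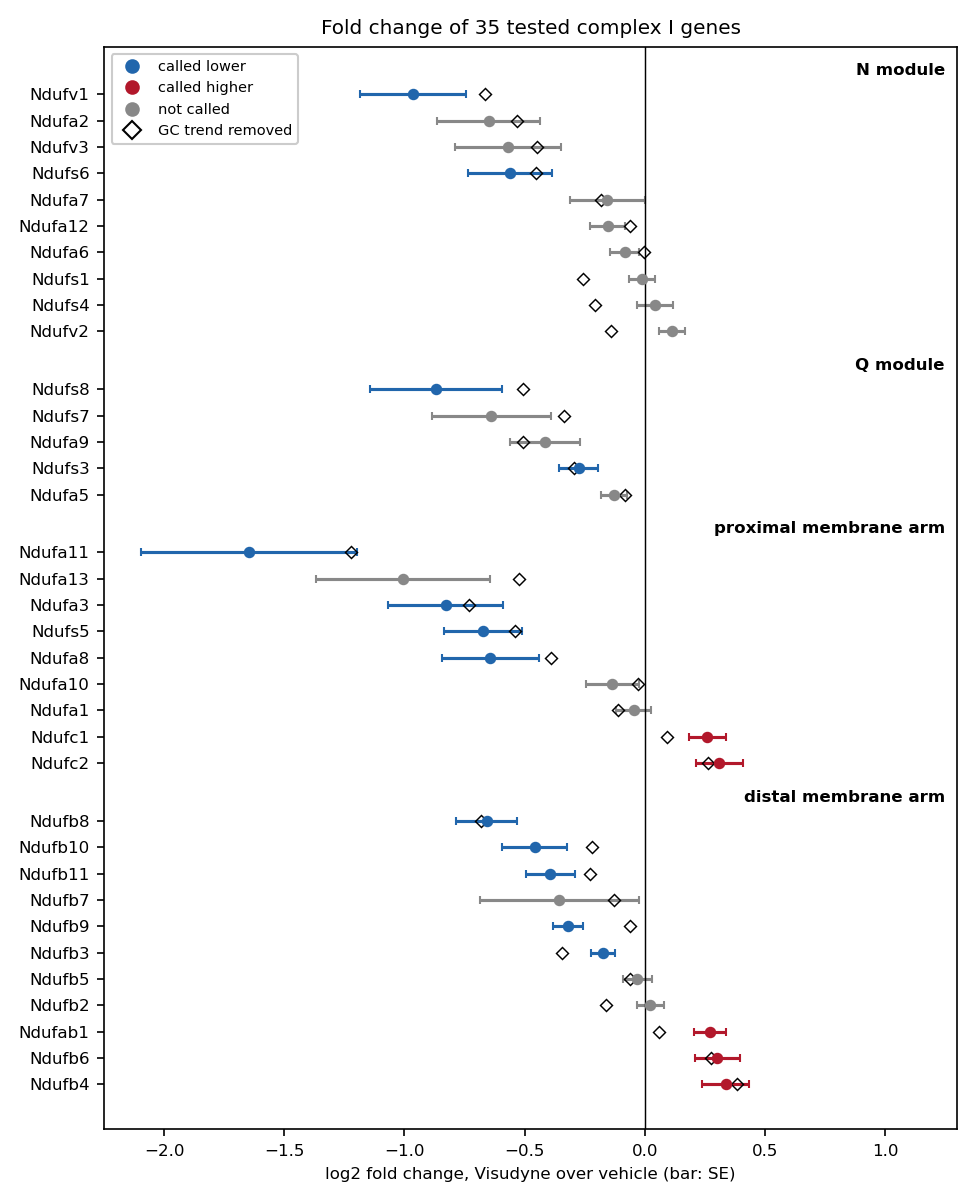
Log2 fold change of each tested member with its standard error, by position in the complex, coloured by its call, with the value after removal of each library's GC trend as an open diamond. Members of both membrane arms lie on both sides of 0, from -1.65 for Ndufa11 to 0.34 for Ndufb4.

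In the N module 2 of 10 genes were called lower and none higher (all genes 11.5% and 8.98%). The median log2 fold change was -0.16. Ndufv1 (ENSMUSG00000037916, GRCm38 chr19:4007384-4012806) encodes the subunit that binds NADH and FMN and takes up the first electrons. Its levels were 5.43, 10.5, 9.04, 10.7 and 13.8 CPM in Visudyne 1 to 5 and 22.4, 17.3, 16.2, 26.3 and 14.3 CPM in vehicle 6 to 10. Every Visudyne library lay below every vehicle library, with Visudyne 1 lowest and vehicle 9 highest. Mean levels of 9.88 ± 3.02 against 19.3 ± 4.93 CPM (SD, n = 5 each) gave a log2 fold change of -0.97 (edgeR adjusted p = 0.0252, SE 0.221). Ndufs6 (ENSMUSG00000021606, chr13:73319838-73328542), which encodes a small zinc-binding subunit, stood at 2.58, 2.90, 2.94, 3.19 and 3.83 CPM in Visudyne and 4.85, 4.02, 4.17, 6.41 and 3.31 CPM in vehicle. The groups overlapped, because vehicle 10 lay below Visudyne 5. Its log2 fold change was -0.56 (edgeR adjusted p = 0.0422, SE 0.175).

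The other 8 N-module genes were not called, and the most abundant of them had fold changes near 0. Ndufs1, the largest subunit and a carrier of several iron-sulfur clusters, averaged 167.2 ± 2.95 CPM against 168.6 ± 11.1 CPM in vehicle (SD, n = 5 each). Its log2 fold change was -0.01, with an SE of 0.0559. Ndufv2, an iron-sulfur subunit that pairs with Ndufv1, stood at 96.2 and 89.0 CPM (log2 fold change 0.11), and Ndufs4, whose loss causes a Leigh-like disease in mice, at 56.6 and 55.0 CPM (0.04). The accessory genes Ndufa6, Ndufa12 and Ndufa7 had log2 fold changes of -0.08, -0.15 and -0.16. Ndufa2 (-0.65, adjusted p = 0.0501 by edgeR) and Ndufv3 (-0.57, adjusted p = 0.0776) were of the size of the called genes but missed the threshold. Ndufv1 and Ndufv2, whose proteins bind each other, thus stood at log2 fold changes of -0.97 and 0.11, and the difference between the genes was not tested.

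In the Q module all 5 genes had negative fold changes and 2 were called lower (all genes 48.9% and 11.5%). The median log2 fold change was -0.42. Ndufs3 (ENSMUSG00000005510, chr2:90894634-90904827), a core subunit of this module, stood at 27.8, 34.6, 33.3, 36.5 and 38.1 CPM in Visudyne and 43.4, 37.2, 42.0, 42.6 and 40.9 CPM in vehicle. Vehicle 7 alone fell inside the Visudyne range. Its log2 fold change was -0.28 (edgeR adjusted p = 0.0374, SE 0.0811). Ndufs8 (ENSMUSG00000059734, chr19:3908863-3912774), a subunit with iron-sulfur clusters on the path to ubiquinone, stood at 0.973, 2.01, 2.97, 2.75 and 3.34 CPM in Visudyne and 4.69, 4.28, 3.47, 6.11 and 3.47 CPM in vehicle. The groups did not overlap, although Visudyne 5 and the lowest vehicle libraries were close, and the log2 fold change was -0.87 (edgeR adjusted p = 0.0438, SE 0.274). Ndufs7, which holds the last iron-sulfur cluster before ubiquinone, was at -0.64 (adjusted p = 0.0797 by edgeR) on 24 to 114 counts a library. Ndufa9, at the quinone site, was at -0.42 (adjusted p = 0.0577) and Ndufa5 at -0.13. The summed level of the module was 75.8 to 100.3 CPM in Visudyne and 97.2 to 112.0 CPM in vehicle, the lowest ratio of the 4 modules at 0.829.

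In the proximal membrane arm 4 of 9 genes were called lower and 2 higher (all genes 11.5% and 8.98%). The median log2 fold change was -0.64. Ndufs5 (ENSMUSG00000028648, chr4:123712710-123718202) encodes an accessory subunit on the intermembrane side. It stood at 6.19, 10.1, 8.81, 10.3 and 10.5 CPM in Visudyne and 15.3, 13.3, 12.8, 19.7 and 11.9 CPM in vehicle. The groups did not overlap, and the log2 fold change was -0.67 (edgeR adjusted p = 0.0266, SE 0.162). A pseudogene copy, BC002163, matches 319 of its bases at 99.4% and held 507 counts against 4312 for Ndufs5. With both summed the log2 fold change was -0.57 and Ndufs5 was still called (adjusted p = 0.0277 by edgeR). Ndufa11 (ENSMUSG00000002379, chr17:56717767-56722141), a membrane subunit related to the Tim17 family of translocases, had the lowest fold of the members, on 4 to 93 counts a library. It stood at 0.251, 0.668, 0.128, 0.502 and 0.470 CPM in Visudyne and 1.63, 1.03, 0.702, 2.37 and 0.591 CPM in vehicle. Vehicle 10 lay below Visudyne 2, so the groups overlapped. Its log2 fold change was -1.65 (edgeR adjusted p = 0.0317, SE 0.449). Its exons share 70 bases with Vmac on the opposite strand, which held 995 counts against 314.

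The other lower genes of this arm were Ndufa3, a small accessory subunit (6.14 ± 1.80 against 10.9 ± 3.27 CPM, log2 fold change -0.83), and Ndufa8, a cysteine-rich subunit of the intermembrane side (3.95 ± 0.9997 against 6.17 ± 1.48 CPM, -0.64; SD, n = 5 each). Ndufc1 and Ndufc2, small subunits of the same arm, rose. Ndufc1 (ENSMUSG00000037152, chr3:51404677-51408988) stood at 29.5, 25.9, 28.9, 27.0 and 27.5 CPM in Visudyne and 23.3, 23.9, 25.7, 19.1 and 23.8 CPM in vehicle. Visudyne 2 and vehicle 8 nearly met, but the groups did not overlap. Its log2 fold change was 0.26 (edgeR adjusted p = 0.0380, SE 0.0773). Ndufc2 (ENSMUSG00000030647, chr7:97400003-97407802) stood at 52.4, 44.2, 52.8, 42.9 and 39.5 CPM in Visudyne and 36.6, 38.8, 41.7, 31.3 and 38.4 CPM in vehicle. Only vehicle 8 reached into the Visudyne range, and the log2 fold change was 0.31 (edgeR adjusted p = 0.0418, SE 0.0962). Not called were Ndufa13, also known as GRIM-19 (-1.01, adjusted p = 0.0626 by edgeR, 36 to 412 counts a library), Ndufa10, of the nucleoside kinase family (-0.14), and Ndufa1, an X-linked subunit needed for assembly (-0.05).

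**Figure D2:**
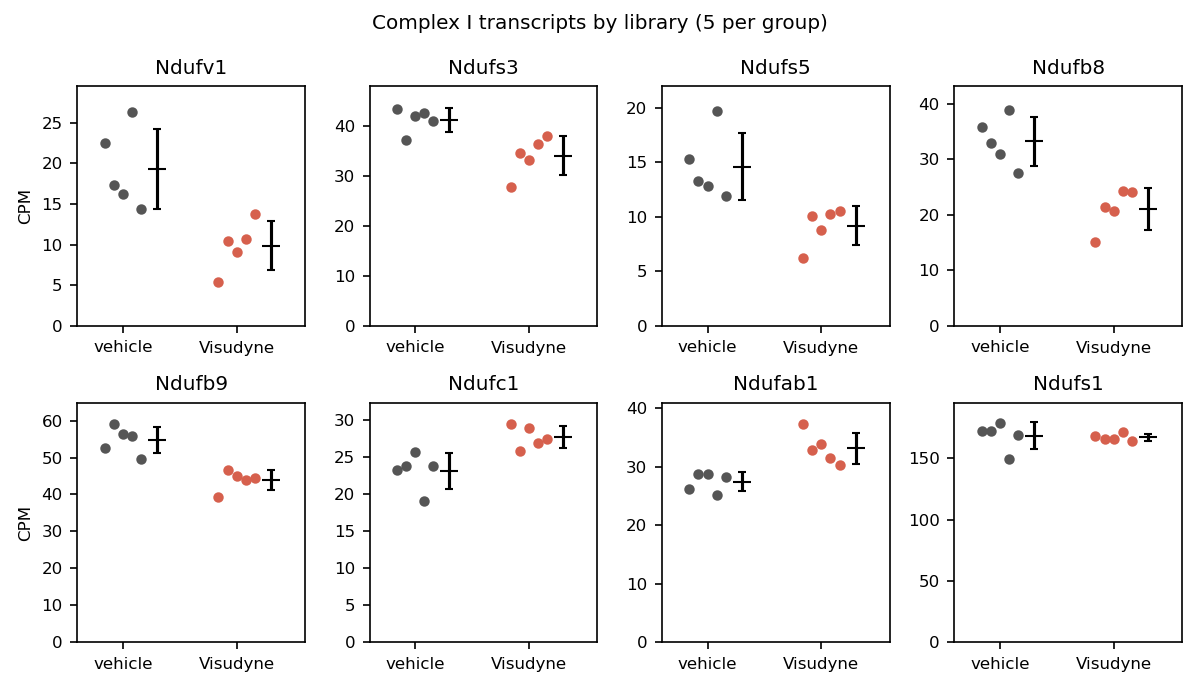
Level in CPM of 8 members in each library, with 1 point per library and the mean with its SD in black. Ndufv1, Ndufs5, Ndufb8 and Ndufb9 lie lower in every Visudyne library than in any vehicle library, Ndufc1 and Ndufab1 higher, and Ndufs1 overlaps, with means of 167.2 and 168.6 CPM.

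In the distal membrane arm 5 of 11 genes were called lower and 3 higher (all genes 11.5% and 8.98%). The median log2 fold change was -0.17. Ndufb8 (ENSMUSG00000025204, chr19:44548572-44555440), an accessory subunit whose protein is often used as a marker of assembled complex I, had the smallest p of the members. It stood at 15.0, 21.4, 20.6, 24.2 and 24.1 CPM in Visudyne and 35.8, 33.0, 31.0, 38.8 and 27.5 CPM in vehicle. The groups did not overlap, and the log2 fold change was -0.66 (edgeR adjusted p = 0.0223, SE 0.127). Ndufb9 (ENSMUSG00000022354, chr15:58933756-58939488), which belongs to the LYR protein family and binds Ndufab1, stood at 39.3, 46.6, 45.1, 43.8 and 44.6 CPM in Visudyne and 52.7, 59.1, 56.4, 55.7 and 49.7 CPM in vehicle. Here too no library overlapped, with a log2 fold change of -0.32 (edgeR adjusted p = 0.0229, SE 0.0638). Ndufb10, Ndufb11 and Ndufb3 were also lower, at log2 fold changes of -0.46, -0.39 and -0.17. Ndufb3 had the smallest of these changes and the tightest vehicle values of all members (CV 3.18%), and its groups did not overlap (22.5 to 24.2 CPM against 25.9 to 27.5 CPM).

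The 3 higher genes of the distal arm were Ndufab1, Ndufb6 and Ndufb4. Ndufab1 (ENSMUSG00000030869, chr7:122085403-122101886) encodes the mitochondrial acyl carrier protein, which also serves lipoic acid synthesis. It stood at 37.4, 32.9, 33.9, 31.6 and 30.3 CPM in Visudyne and 26.2, 28.9, 28.9, 25.2 and 28.3 CPM in vehicle, without overlap. Its log2 fold change was 0.27 (edgeR adjusted p = 0.0277, SE 0.0678), opposite in sign to that of its partner Ndufb9. Ndufb6 (ENSMUSG00000071014, chr4:40270591-40279421), an accessory membrane subunit, stood at 56.6, 45.0, 51.1, 45.9 and 41.9 CPM in Visudyne and 37.8, 40.8, 41.2, 32.5 and 42.8 CPM in vehicle. Vehicle 10 lay above Visudyne 5, and the log2 fold change was 0.30 (edgeR adjusted p = 0.0417, SE 0.0932). Ndufb4 (ENSMUSG00000022820, chr16:37647170-37654453), likewise an accessory membrane subunit, stood at 34.4, 31.6, 30.6, 26.9 and 24.3 CPM in Visudyne and 24.0, 25.1, 25.3, 20.3 and 22.2 CPM in vehicle. Visudyne 5 fell among the vehicle values, and the log2 fold change was 0.34 (edgeR adjusted p = 0.0354, SE 0.0968). The pseudogene Ndufb4c is identical to it over 390 bases and held 2982 counts against 9290, and with both summed the log2 fold change was 0.13 and the call was lost (adjusted p = 0.272 by edgeR). Not called were Ndufb5 (-0.03), Ndufb2 (0.02) and Ndufb7 (-0.36, 12 to 70 counts a library). Braf, on the opposite strand, overlaps 146 exonic bases of Ndufb2 and held 105099 counts against 15219.

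When libraries were scaled by total counts, the median of all tested genes moved to a log2 fold change of -0.19 and that of the members to -0.47. Then 23 members were called lower and 0 higher, where 24.5% of all tested genes were lower and 1.23% higher. The 5 higher members kept positive values of 0.06 to 0.12 on that scale. A direction given here is therefore relative to the TMM scale.

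Ndufa4 (ENSMUSG00000029632, chr6:11900292-11907497) was the member that was not tested. It was listed at 0 in all 5 Visudyne libraries and in vehicle 7, 9 and 10, with 2.02 CPM (88 counts) in vehicle 6 and 0.657 CPM in vehicle 8. No fold is given, since a listed 0 from an estimated count can be a failed assignment of reads.

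**Figure D3:**
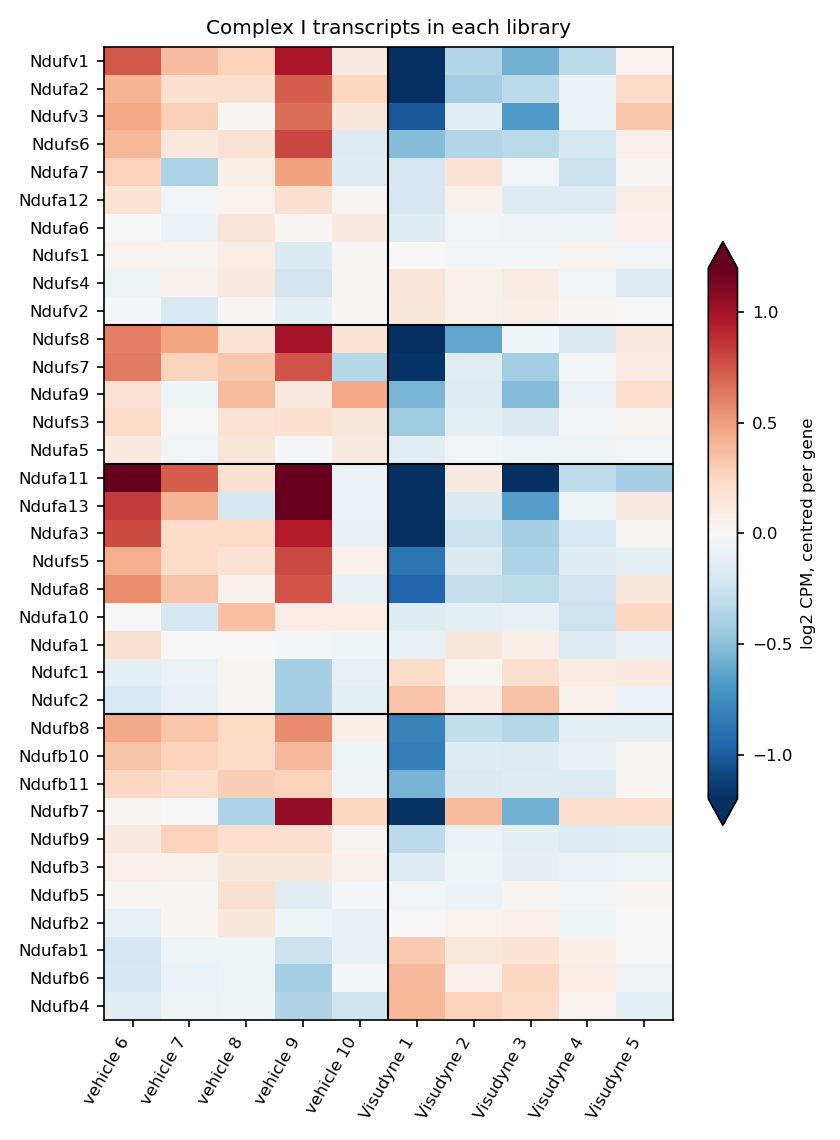
Log2 CPM of the 35 tested members in each library, centred on each gene's mean, with vehicle libraries on the left and modules separated by lines. Among the 13 genes called lower, Visudyne 1 is the lowest of its group for 12 and vehicle 9 the highest of its group for 10.

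Single libraries stood out across the members. Visudyne 1 was the lowest of its group for 21 of the 35 tested members and for 12 of the 13 called lower. Visudyne 5 was the highest of its group for 19, vehicle 9 the highest for 17 and vehicle 10 the lowest for 14. The GC slopes of these libraries were also the extremes of their groups: -0.0527 in Visudyne 1, 0.00133 in Visudyne 5, -0.00154 in vehicle 10 and 0.0399 in vehicle 9. The part of the slopes in the order of the libraries was not tested. Without Visudyne 5 the groups did not overlap for 22 members, and without vehicle 10 for 16, in place of 8, while the share of all tested genes without overlap went from 12.5% to 27.4% and 20.4%.

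The members also differed among themselves in GC content, from 42.2% (Ndufv2) to 60.4% (Ndufa13). Across the 35 tested members the log2 fold change fell with exonic GC content (Pearson's r = -0.75, Spearman's rho = -0.77), and across 15829 tested genes r was -0.59 and rho -0.68. These are descriptions across genes that share the same libraries, and genes are not independent replicates. Of the 10 members with at least 52% GC, 7 were called lower and 0 higher, against 27.4% and 0.92% of all tested genes in that range. Of the 15 members from 48% to 52%, 5 were lower and 2 higher (all genes 11.8% and 2.15%), and of the 10 below 48%, 1 was lower and 3 higher (1.44% and 17.0%). The genes called lower had 45.0% to 57.7% GC and those called higher 43.9% to 50.2%.

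When each library's loess trend with GC content was removed, 6 members were called lower (Ndufv1, Ndufs1, Ndufs4, Ndufs5, Ndufb3 and Ndufb8) and Ndufb4 higher, where 3.7% and 1.57% of all tested genes were called. The median log2 fold change was then -0.22 over the members and -0.04 over all tested genes. Ndufb4 and Ndufs5 stood here without their pseudogene copies, which were summed only in the fit by group, where the call of Ndufb4 was lost. Ndufb8 was little moved (-0.68, adjusted p = 0.0319 by edgeR), and Ndufv1 went from -0.97 to -0.67 (adjusted p = 0.0358). Ndufb9 fell away, from -0.32 to -0.06, and Ndufab1 from 0.27 to 0.06. Ndufs1 and Ndufs4, with 42.4% GC each, went the other way, from -0.01 to -0.26 and from 0.04 to -0.21. With the GC slope of each library as a covariate, which nearly separates the groups, 0 of the 35 members were called (1 had an unadjusted p under 0.05) and the median was 0.01, where 0 of all 15938 tested genes were called (1063 unadjusted) and their median was 0.02. With 1 surrogate variable 0 were called (7 unadjusted) and the median was -0.08, where again 0 of all tested genes were called (2222 unadjusted). Group and GC slope cannot be told apart with these libraries beyond those values.

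**Figure D4:**
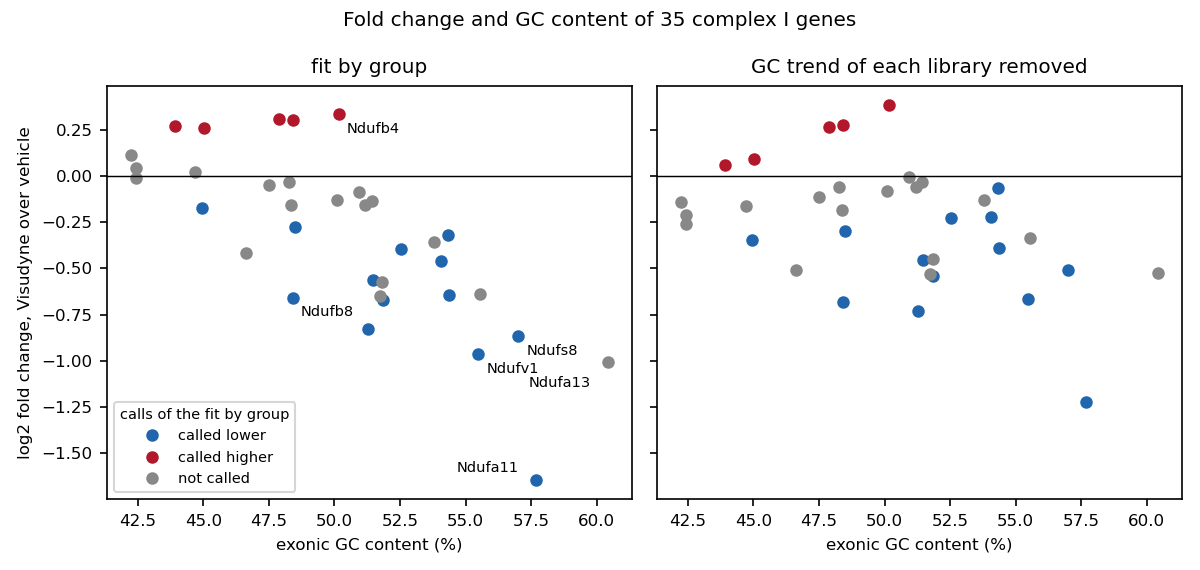
Log2 fold change of the 35 tested members against the GC content of their exons, by group (left) and after removal of each library's GC trend (right), with colours for the calls of the left fit in both panels. Pearson's r is -0.75 on the left and -0.43 on the right. Across 15829 tested genes it was -0.59 before the removal and -0.01 after it.

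The proteins of complex I are present in about equal numbers, whereas their transcripts were not. Per length of the principal transcript, vehicle levels (CPM per kilobase) ran from 1.67 for Ndufb7 to 77.7 for Ndufb9, with a median of 24.1, a range of 46.7-fold. Ndufs1 (64.2) and Ndufb6 (59.2) followed at the top, and Ndufa11 (2.32) and Ndufs7 (2.53) at the bottom. The CV over the 5 vehicle libraries was 3.18% to 58.4%, the highest for Ndufa11, with a median of 10.5%, and 1.77% (Ndufs1) to 53.1% (Ndufa11) in Visudyne, with a median of 13.5%. Less abundant members had the more negative fold changes (r = 0.61 between log2 level per length and log2 fold change across the 35 members), and they also had more GC (r = -0.58 between GC content and log2 level per length). The summed level of all 36 was 976.1 ± 16.01 CPM against 1032 ± 30.8 CPM in vehicle (SD, n = 5 each), a ratio of 0.945, which is nearer to 1 than the members' median fold of 0.826. The Visudyne sums, 950.4 to 988.6 CPM, lay below all vehicle sums, 1003 to 1076 CPM. The counts of the 35 tested members were 0.161% to 0.188% of all counts on nuclear protein-coding genes in Visudyne. In vehicle they were 0.185% to 0.205%, where Visudyne 5 lay above vehicle 10.

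The partner genes of the complex did not follow a single direction. For comparison with the counts below, 20.5% of all tested genes were called, 11.5% lower and 8.98% higher. The 7 subunits encoded by mitochondrial DNA were all called higher, with a median log2 fold change of 0.43 (mt-Nd3 had the smallest p). The ratio of their counts to those of the 35 tested nuclear members was 11.6 to 16.1 in Visudyne and 8.21 to 10.5 in vehicle. With the GC trend removed the median of the 7 was 0.04 and the calls were lost (0 had an unadjusted p under 0.05). Of 18 tested assembly factor genes 0 were called (3 had an unadjusted p under 0.05, and DESeq2 called 1 lower), with a median of -0.02 and the smallest p for Ecsit. Of 14 regulators of mitochondrial biogenesis 2 were called lower and 1 higher, which is near the share of all tested genes. The one with the smallest p, Ppargc1a, the coactivator PGC-1 alpha, was at 51.7 ± 2.99 CPM against 42.3 ± 3.27 CPM in vehicle (log2 fold change 0.29, adjusted p = 0.0252 by edgeR, n = 5 each; 0.01 with the GC trend removed). Of 12 other mitochondrial genes, such as porins and import receptors, 1 was called lower, the citrate synthase gene Cs (log2 fold change -0.26).

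**Figure D5:**
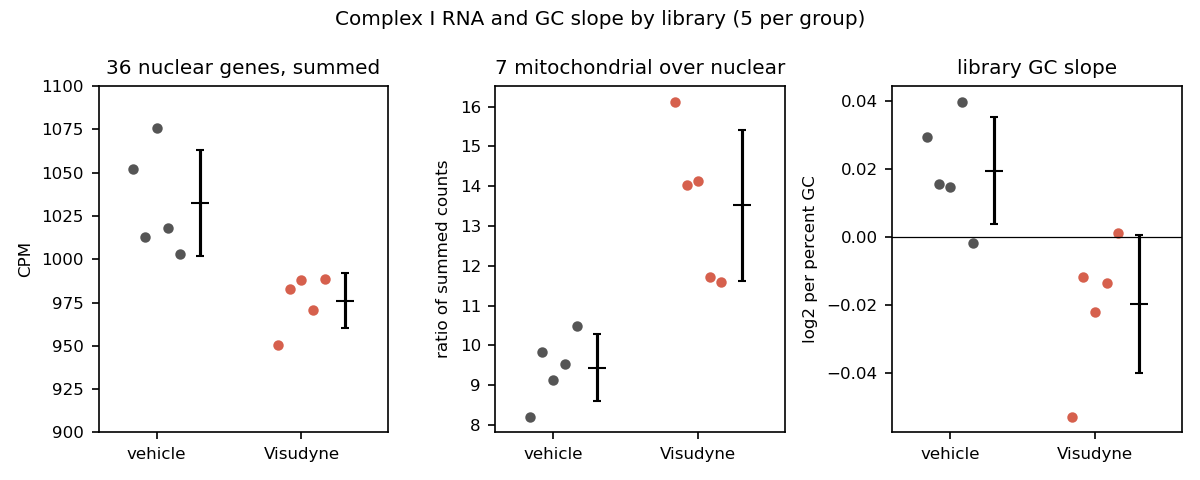
Summed CPM of the 36 nuclear genes (axis not from 0), count ratio, and GC slope of each library, with 1 point per library and the mean with its SD. The ratio is that of the counts of the 7 mitochondrially encoded subunits to those of the 35 tested nuclear members. The first 2 measures separate the groups, at 950.4 to 988.6 against 1003 to 1076 CPM and 11.6 to 16.1 against 8.21 to 10.5, while the slopes of Visudyne 5 and vehicle 10 cross.

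Exons of 15 members overlapped another annotated gene, for 13 of them on the opposite strand. The libraries were stranded, but whether the counting used strand is not given in the sources used here, so counts of such pairs can be mixed. Ndufs6 shares 30 bases with Mrpl36 (4462 counts against 1392), Ndufs3 88 bases with Kbtbd4 (5433 against 13469) and Ndufb5 616 bases with Mrpl47 (5835 against 21844). Ndufb8 and Ndufb9 overlapped only a gene on their own strand, by 134 bases (Gm20538) and 201 bases (Gm49356). Strand cannot separate such a pair, and neither Gm20538 nor Gm49356 was listed with counts.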

How the data were processed

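Per the labels' protocols, stranded libraries were made from total RNA of 10 hippocampi. A single table of estimated counts per gene, as whole numbers, was deposited by the authors. Salmon, FastQC and the build mm10 are named in the submitters' processing notes. Neither the annotation nor the strand setting is given in the sources used here. Counts were used as deposited. Positions, exons and GC content came from GENCODE M21 (GRCm38).

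Groups were compared in R 4.3.3 with edgeR 4.0.16 (filterByExpr, TMM, quasi-likelihood test by group, two-sided), called at an adjusted p under 0.05. The SE is the log2 fold change divided by the square root of F. The fit was tested on simulated counts that held no GC trend between libraries, so that test does not cover the GC slopes seen here. Libraries of a group differed by more than sampling noise (chi-square per degree of freedom at least 13.5). Replicate numbers are not shared between groups.

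Alternatives were RLE, upper-quartile and total-count scaling, other filters, DESeq2 1.42.0, limma-voom (limma 3.58.1), 1 surrogate variable (sva 3.50.0), GC and length trends (loess span 0.3), mitochondrial genes left out, and each library left out. Summing the pseudogene copies Ndufb4c and BC002163 with Ndufb4 and Ndufs5 was added after seeing the data. So were the YY1 stretches, which lie after the start site. Copies were sought at 95% identity or more over at least 100 bases, and the others found were not summed.

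The members and lists were chosen with earlier results of these data known. All 36 members are named. Values per library are given for the 2 called members with the smallest p in each module, all called higher, and Ndufa4. Of other lists only the gene with the smallest p is named, and 1 listed gene is not reported here.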

Additional observations from a re-analysis of the deposited data

Results flagged for a closer look

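In 4 of the 70 sets of 5 libraries checked (each tested member in each group), 1 library stood apart from the other 4 by Dixon's criterion, which chance alone does in about 1 of 20 sets. Ndufb10, called lower, was at 14.16 CPM in Visudyne 1, and the nearest Visudyne library was at 22.38 CPM. Ndufb11, also called lower, was at 16.66 CPM in vehicle 10 against 19.96 CPM in the nearest vehicle library. Ndufa10 was at 30.34 CPM in Visudyne 5, where the nearest was 23.98 CPM. Ndufa1 was at 21.08 CPM in vehicle 6, where the nearest was 18.62 CPM. Neither Ndufa10 nor Ndufa1 was called between the groups.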

How the results depend on the processing

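The 18 called members (13 lower, 5 higher) rested on single libraries: leaving out 1 at a time gave 0 to 23 called, 0 to 18 lower and 0 to 5 higher (all tested genes 0.0622% to 31.5% called), a median log2 fold change of -0.33 to -0.17 and 8 to 22 members without overlap between groups (22 without Visudyne 5, 16 without vehicle 10). The share of all tested genes without overlap was then 12.8% to 27.4% (27.4% without Visudyne 5, 20.4% without vehicle 10). Without a filter on low counts 9 were called (8 lower, 1 higher; all genes 7.59%). With the GC trend removed there were 7 (6 and 1; all genes 5.28%), with GC and length trends removed 5 (5 and 0; all genes 4.74%), and with 1 surrogate variable or the GC slope as a covariate 0 (0 and 0), as for all genes by edgeR. With total counts 23 were lower and 0 higher (all genes 24.5% and 1.23%). The median was -0.47 with total counts, -0.15 with limma-voom and library weights, -0.0796 with 1 surrogate variable and 0.0102 with the GC slope. That slope also turned the sign of 9 members that were not called and of 6 that were: Ndufs6 (0.0264), Ndufs8 (0.0853), Ndufa3 (0.17), Ndufa8 (0.14), Ndufb10 (0.0547) and Ndufb6 (-0.0371). Ndufs4 was called lower with total counts (-0.17) and with the GC trend removed (-0.21). The cause of these changes was not tested. Other scalings, DESeq2 (23 called, all genes 28.1%), limma-voom (19 called, all genes 21.5%) and omitting mitochondrial genes kept the median between -0.28 and -0.27. A filter at a mean of 5 CPM gave -0.18 (28 members tested, 17 called, all genes 37%). No paired analysis was possible because the groups share no replicate number. Counts as low as 4 (Ndufa11) and 12 (Ndufb7) a library limit the precision of the rarest members.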
